A study of Mus musculus with 8 samples.

Results

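The genes described here are 10 genes of the poly(ADP-ribose) polymerase (PARP) family and its partner, Parp1, Parp2, Parp3, Parp8, Parp9, Parp10, Parp11, Parp12, Parp14 and Dtx3l, in tumor-associated macrophages (TAMs). They were taken by gene symbol from the 53247 genes of the deposited table, in which each symbol had 1 row, and all 10 passed the filter on low values that 13850 genes passed. Parp1, Parp2 and Parp3 were considered as DNA-damage-responsive PARPs, and Parp9, Parp10, Parp11, Parp12, Parp14 and Dtx3l as interferon-induced genes, and Parp8 was put in neither class. RNA-Seq of 4 WT and 4 miR-21-/- TAM samples was compared. LLC (Lewis lung carcinoma) cells, an established mouse tumor line, were implanted s.c. into C57/BL6 mice of 8 weeks, and after 14 days, when the mice were 10 weeks old, FACS collected cells positive for CD45, CD11b, MHCII and F4/80 as TAMs. Hosts were WT or miR-21 null, of which the study's methods give the allele as Mir21atm1Yoli, bred onto the same background, and the labels name no other allele or agent. In the miR-21 null hosts the deletion is not restricted to macrophages, so that other host cells lacked miR-21 as well. The labels call the samples biological replicates but do not tie them to mice, and miR-21-/- replicate 1 carries both numbers 1 and 2 in its title, with no word on pooling. The p-values therefore measure the spread between these samples.

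PARP enzymes take ADP-ribose from NAD and attach it to proteins and nucleic acids. Parp1 and Parp2 bind broken DNA and build chains of ADP-ribose that recruit repair factors, and Parp3, which adds single units, acts at double-strand breaks. Most other members add single units or have lost activity, and several of them are classic products of interferon signaling. Parp9 lacks most activity of its own and pairs with Dtx3l, a Deltex-family ubiquitin ligase.

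Values are counts per 1000000 reads (CPM), and fold changes are miR-21-/- over WT on the scale of log2(CPM + 1) with the SE from limma, and each adjusted p is Benjamini-Hochberg over all 13850 genes. Genes past the threshold had an adjusted p of 0.005 or less with more than a 1.5-fold change, and a looser rule asked only for an adjusted p of 0.05 or less. All 10 genes met the looser rule, 8 of them higher and 2 lower in miR-21-/- TAMs, against 36.0% of all tested genes in either direction, 9.49% higher and 26.5% lower. Only Parp9 and Parp10 were past the threshold, both higher, against 7.12% of tested genes in either direction, 2.89% higher and 4.23% lower. The groups of 4 samples did not overlap for any of the 10 genes, against 35.1% of tested genes (9.44% higher and 25.7% lower). The median log2 fold change of all tested genes was -0.10, and 33.2% of them had a value above 0. Scaling by the median of ratios or by quantiles, in place of the authors' scaling, moved that median to -0.0030 and -0.0076, and all 10 genes kept their direction and met the looser rule under both. Because these are bulk samples, fewer cells that express a gene and less of its RNA per cell cannot be told apart.

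Parp1, the main sensor of DNA strand breaks, lies on the plus strand at chr1:180568924-180601254 (mm10). Its level was 130.4, 123, 129 and 129 CPM in the WT samples and 83.1, 91.1, 93.9 and 94.8 CPM in the miR-21-/- samples. Every miR-21-/- sample was under every WT sample, with the lowest value in replicate 1. The mean fell from 128 ± 3.21 to 90.7 ± 5.33 CPM (SD, n = 4 per genotype), which is -0.49 on the log2 scale (SE 0.054, 95% interval -0.61 to -0.37, limma adjusted p = 0.000181). With median-of-ratios and quantile scaling the log2 fold change of Parp1 was -0.38 and -0.47.

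Parp2, its closest relative in the family, lies at chr14:50807841-50821301, plus strand. It was at 36.2, 36.6, 34.6 and 39.4 CPM in WT TAMs and at 27.8, 27.5, 29.4 and 30.6 CPM in miR-21-/- TAMs. The samples separated by genotype with a smaller step than for Parp1, a log2 fold change of -0.34 (SE 0.061, limma adjusted p = 0.00243). It shrank to -0.23 with median-of-ratios scaling (limma adjusted p = 0.0214) and to -0.25 with quantile scaling (0.0170).

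Parp3 went the other way. It lies on the minus strand at chr9:106470322-106476949, and 987 bases of its span also belong to Rrp9 on the opposite strand, whose mean was 12.9 CPM in the WT and 12.1 CPM in the miR-21-/- samples. Parp3 was at 40.1, 38.3, 42.7 and 43.0 CPM in WT TAMs and at 60.6, 58.6, 51.5 and 52.9 CPM in miR-21-/- TAMs, where replicates 1 and 2 were above replicates 3 and 4. The log2 fold change was 0.44 (SE 0.068, limma adjusted p = 0.00109). Thus 2 of the 3 DNA-damage-responsive PARPs fell and 1 rose, none past the threshold, with a median log2 fold change of -0.34.

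The 3 genes Parp14, Dtx3l and Parp9 form a cluster on chromosome 16 that spans 139.7 kb, chr16:35832874-35972605. Parp14, the largest of the interferon-induced PARPs and a reader and writer of single ADP-ribose units, lies on the minus strand at chr16:35832874-35871544. It was at 339, 290.2, 279 and 325 CPM in WT TAMs and at 549, 440.0, 425 and 443 CPM in miR-21-/- TAMs. Replicate 1 stood above the other miR-21-/- samples, and all 4 were above the WT range. The log2 fold change was 0.58 (SE 0.094, limma adjusted p = 0.00130), and its fold of 1.499 fell just short of the 1.5 of the threshold. Without miR-21-/- replicate 1 the log2 fold change was 0.50, and Parp14 passed the threshold in 7 of the 17 alternatives, such as median-of-ratios scaling (0.70) and the fits without WT replicate 1 (0.63) or WT replicate 4 (0.61), or without miR-21-/- replicate 2 (0.61), 3 (0.62) or 4 (0.60).

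Parp9 (chr16:35938470-35972605, plus strand) was at 66.4, 63.6, 61.6 and 77.2 CPM in WT TAMs and at 100.5, 99.9, 100.5 and 106 CPM in miR-21-/- TAMs. The miR-21-/- samples lay close together, and WT replicate 4 was the nearest to them. The mean rose from 67.2 ± 6.95 to 102 ± 2.95 CPM (SD, n = 4 per genotype), which is 0.60 on the log2 scale (SE 0.070, limma adjusted p = 0.000254). Its fold of 1.512 was just inside the threshold, and it dropped under 1.5 without WT replicate 2 (log2 fold change 0.57), WT replicate 3 (0.56) or miR-21-/- replicate 4 (0.58).

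Dtx3l lies on the minus strand at chr16:35926511-35939151, head to head with Parp9, and the spans of both genes share 682 bases. It was at 137, 128, 118 and 149 CPM in WT TAMs and at 208, 189.7, 190.0 and 202 CPM in miR-21-/- TAMs. As for Parp9, WT replicate 4 was the highest WT sample. The log2 fold change was 0.57 (SE 0.072, limma adjusted p = 0.000377), with a fold of 1.485, outside the threshold by its size. It passed the threshold with median-of-ratios scaling (0.68) and without WT replicate 1 (0.59) or 4 (0.63) or miR-21-/- replicate 2 (0.59) or 3 (0.59).

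Parp10, which adds single ADP-ribose units and is a classic interferon-stimulated gene, lies at chr15:76231174-76243441, minus strand. It was at 43.6, 40.9, 47.6 and 44.7 CPM in WT TAMs and at 86.2, 71.2, 57.7 and 61.2 CPM in miR-21-/- TAMs. The miR-21-/- samples ran from 57.7 to 86.2 CPM, with replicate 1 the highest. The log2 fold change was 0.62 (SE 0.11, limma adjusted p = 0.00246), past the threshold. Without miR-21-/- replicate 1 it was 0.51 and not past the threshold. It also left the threshold without WT replicate 1 (0.61, adjusted p = 0.00698), WT replicate 2 (0.58, 0.00934), WT replicate 3 (0.65, 0.00574) or miR-21-/- replicate 2 (0.60, 0.00873). The span of Parp10 shares 1401 bases with Plec on the same strand, and the mean of Plec was 208 CPM in the WT and 274 CPM in the miR-21-/- samples, so that reads of the shared stretch could count for either gene.

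Parp11, an interferon-induced enzyme of single units, lies at chr6:127446840-127494261, plus strand. With 23.5, 21.6, 21.3 and 23.7 CPM in WT TAMs and 33.2, 31.0, 27.1 and 32.7 CPM in miR-21-/- TAMs, it had the fewest reads of the 10 genes. The miR-21-/- samples were all above the WT samples, with replicate 3 the nearest to them. On the log2 scale the change was 0.44 (SE 0.075, limma adjusted p = 0.00175).

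Parp12, a zinc-finger PARP of the antiviral response, lies at chr6:39086410-39118349, minus strand. It was at 79.4, 72.6, 75.3 and 80.7 CPM in WT TAMs and at 94.0, 89.5, 83.9 and 88.3 CPM in miR-21-/- TAMs. The lowest miR-21-/- sample was just above the highest WT sample, and the log2 fold change of 0.21 (SE 0.055, limma adjusted p = 0.0164) was 0.32 with median-of-ratios scaling. Without WT replicate 2 the adjusted p was 0.0524. All 6 interferon-induced members thus rose under the looser rule, with a median log2 fold change of 0.58.

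Parp8, a less studied member put in neither class, lies at chr13:116854820-117025537, minus strand. It was at 43.3, 49.0, 41.0 and 46.2 CPM in WT TAMs and at 54.1, 53.1, 57.8 and 57.9 CPM in miR-21-/- TAMs. The log2 fold change was 0.31 (SE 0.065, limma adjusted p = 0.00528).

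**Figure D1:**
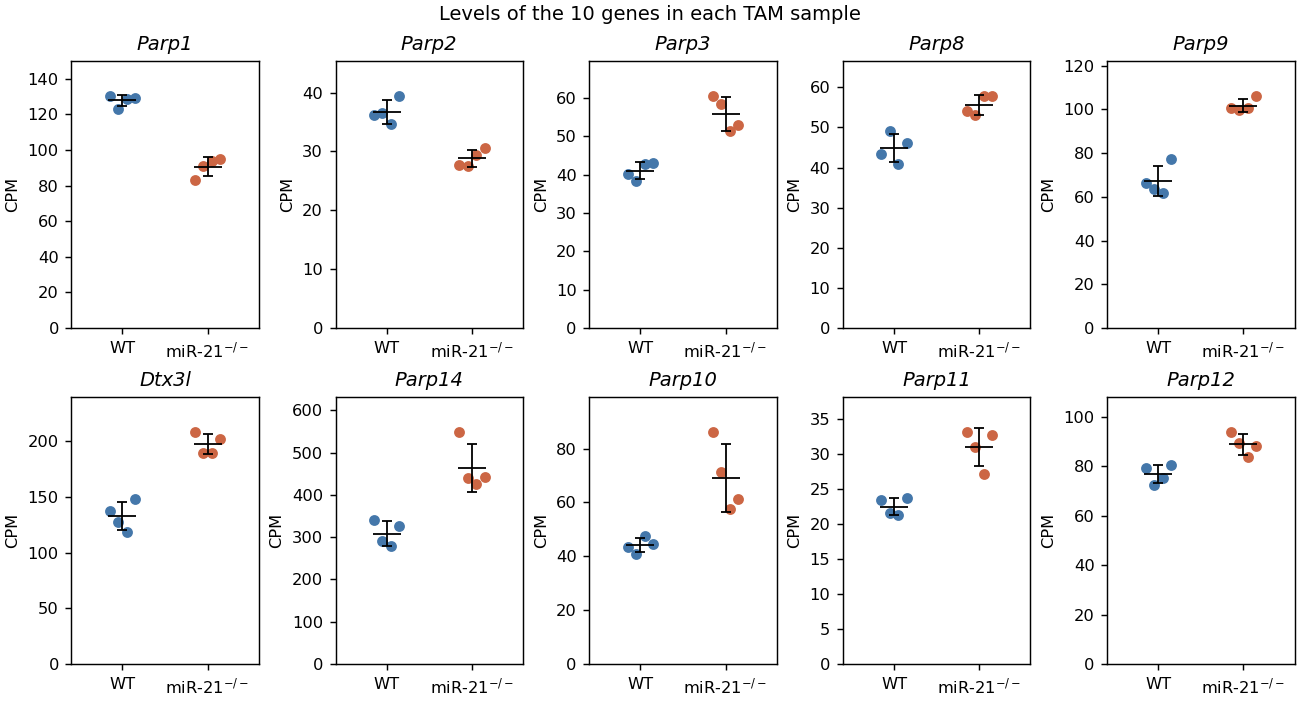
Level of each of the 10 genes in CPM in the 4 WT (blue) and 4 miR-21-/- (red) samples, in replicate order from left to right within a genotype, with the mean (long bar) and SD (error bar). Parp1 and Parp2 are lower in every miR-21-/- sample and the other 8 genes higher, and miR-21-/- replicate 1 is the highest sample for Parp14 (549 CPM) and Parp10 (86.2 CPM).

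Levels were compared between genes only per kb of merged exons. In WT TAMs the order in CPM per kb was Parp14 (33.2), Parp1 (24.2), Dtx3l (23.2), Parp12 (19.3), Parp9 (13.8), Parp3 (11.1), Parp10 (10.3), Parp2 (10.1), Parp8 (5.05) and Parp11 (3.20). Of the neighbors in this order, Parp1 and Dtx3l, Parp3 and Parp10, and Parp10 and Parp2 overlapped between their ranges over the 4 samples, and the others did not. In miR-21-/- TAMs Parp14 was again the highest (49.9 CPM per kb) and Parp8 (6.27) and Parp11 (4.41) again the lowest, while Parp1 (17.1) came after Dtx3l (34.5), Parp12 (22.3) and Parp9 (20.9). There Parp12 overlapped Parp9, Parp1 overlapped Parp10 (16.2), and Parp10 overlapped Parp3 (15.1). Parp2 followed with 7.95 CPM per kb.

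As a comparison within each sample, 5 ratios of members, as differences of log2(CPM + 1), were compared with exact two-sided permutation tests over all 70 assignments of 4 samples to each genotype, for which the smallest possible p is 0.0286. Dtx3l over Parp9, the partners of a head-to-head pair, was 2.06, 2.01, 1.92 and 1.93 in WT TAMs and 2.07, 1.90, 1.89 and 1.90 in miR-21-/- TAMs. The mean ratio was 1.98 ± 0.0704 and 1.94 ± 0.0890 (SD, n = 4, exact permutation p = 0.514, adjusted over the 5 ratios p = 0.857). Both groups overlapped, although each of the 2 genes had itself risen. The ratios of Parp14 over Parp9 (4.61 ± 0.371 in WT and 4.57 ± 0.604 in miR-21-/-, exact permutation p = 0.83) and of Parp14 over Dtx3l (2.32 ± 0.123 and 2.35 ± 0.198, exact permutation p = 0.857) overlapped as well, each with an adjusted p of 0.857.

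Among the DNA-damage-responsive PARPs, Parp3 over Parp1 was 0.307, 0.311, 0.332 and 0.332 in WT TAMs and 0.729, 0.643, 0.548 and 0.559 in miR-21-/- TAMs. The groups did not overlap, and the log2 ratio differed by 0.93 (exact permutation p = 0.0286, adjusted p = 0.143), which is the smallest p the design allows before adjustment. Every miR-21-/- sample was already above every WT sample for Parp3 and under every WT sample for Parp1. The separation of this ratio and its p follow from that and add no separate result. Parp2 over Parp1 was 0.287 ± 0.0165 in WT and 0.318 ± 0.0137 in miR-21-/- TAMs (SD, n = 4, exact permutation p = 0.0571, adjusted p = 0.143), with overlapping groups. With quantile scaling the exact permutation p of this ratio was 0.0286. None of the 5 ratios passed an adjusted p of 0.05, which a lone ratio at the smallest p cannot pass.

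**Figure D2:**
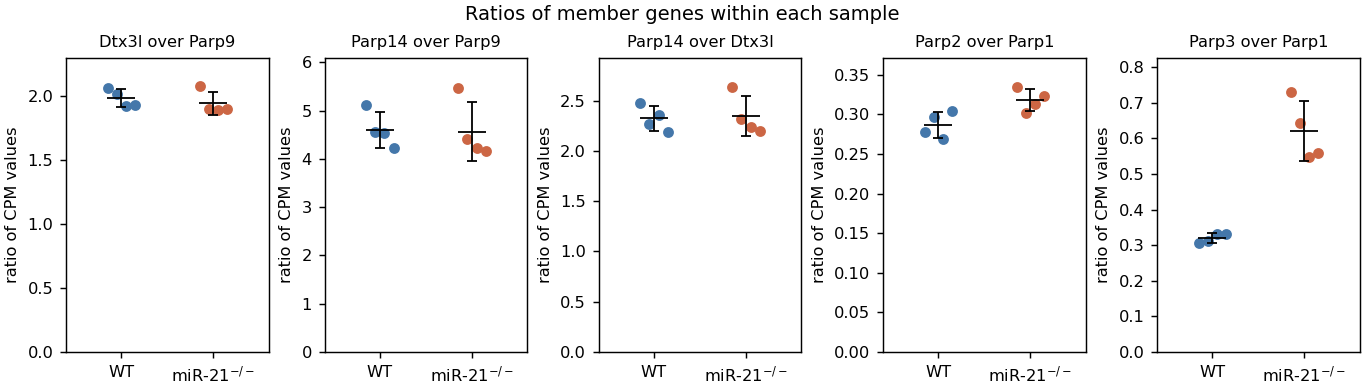
Ratio of the CPM values of a pair of genes within each sample (no unit, axes from 0), for WT (blue) and miR-21-/- (red) TAMs, with the mean and SD of 4 samples. Parp3 over Parp1 separates the genotypes, as both genes already do in opposite directions, from 0.307 to 0.332 in WT and from 0.548 to 0.729 in miR-21-/- TAMs. The ratios within the chromosome 16 cluster overlap.

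The tested neighbors of the chromosome 16 cluster were read as a comparison of position. Of 46 genes listed within 500 kb of it, the 3 members aside, 12 were tested. Over all tested genes 7.12% were past the threshold and 36.0% met the looser rule, and the counts among these 12 were near those shares. The only neighbor past the threshold was 2010005H15Rik, which went up from 0.704 to 2.22 CPM (log2 fold change 0.92, limma adjusted p = 0.000162) and passed the filter on low values only through its miR-21-/- level. Wdr5b (-0.47, adjusted p = 0.00427), Stfa2l1 (-0.70, adjusted p = 0.0118) and Pdia5 (-0.38, adjusted p = 0.0396) were lower under the looser rule, which Pdia5 missed with median-of-ratios scaling (adjusted p = 0.0924) and quantile scaling (0.225). The other 8 passed neither rule, with log2 fold changes of 0.032 for Kpna1, the nearest tested gene beyond Parp9, 0.063 for Hspbap1, the nearest beyond Parp14, 0.073 for Ccdc58, 0.098 for Gm5483, -0.081 for Sec22a, -0.19 for Fam162a, -0.24 for Gm5963 and -0.29 for Dirc2. Between the spans of Parp14 and Dtx3l lie 54966 bases.

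Sequence upstream of the members was read from RefSeq windows of GRCm38.p6, of which 7 of the 10 genes had at least 1 (Parp9, Parp10 and Parp14 had none). In the 250 bases before each start, 2 motifs were searched on both strands: the core of the interferon-stimulated response element (ISRE), which is GAAA, any 2 bases and GAAA again, and the IFN-γ-activated site (GAS), TTCNNNGAA. Parp11 had a pair of windows and the other 6 genes 1 each. Of these 8 windows only the first of Parp11, at its outermost start, held either motif. It held the ISRE core on the opposite strand, as TTTCGATTTC, 44 to 35 bases before the start, and a GAS match, TTCTTGGAA, 37 to 29 bases before it, so that both share 3 bases. Of all 32851 windows, 2.98% held the ISRE core and 7.02% the GAS motif. That window of Parp11, an interferon-induced member, is printed beside those of Parp1, which fell, and Parp3, which rose within the DNA-damage-responsive class. Capitals mark the joined ISRE and GAS matches, and each line reads 5′ to 3′ along the strand of the gene.
Parp11, chr6:127446590-127446839, plus strand: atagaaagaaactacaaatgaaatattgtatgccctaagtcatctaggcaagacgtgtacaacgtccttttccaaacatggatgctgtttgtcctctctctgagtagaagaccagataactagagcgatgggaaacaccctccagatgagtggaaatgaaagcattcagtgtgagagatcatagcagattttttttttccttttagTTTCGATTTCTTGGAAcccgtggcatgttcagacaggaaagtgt
Parp1, chr1:180568641-180568890, plus strand: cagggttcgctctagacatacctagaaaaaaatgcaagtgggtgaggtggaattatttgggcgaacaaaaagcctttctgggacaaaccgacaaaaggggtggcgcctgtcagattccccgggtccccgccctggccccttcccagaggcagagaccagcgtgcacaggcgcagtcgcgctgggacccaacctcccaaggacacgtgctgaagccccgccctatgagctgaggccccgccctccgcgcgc
Parp3, chr9:106476950-106477199, minus strand: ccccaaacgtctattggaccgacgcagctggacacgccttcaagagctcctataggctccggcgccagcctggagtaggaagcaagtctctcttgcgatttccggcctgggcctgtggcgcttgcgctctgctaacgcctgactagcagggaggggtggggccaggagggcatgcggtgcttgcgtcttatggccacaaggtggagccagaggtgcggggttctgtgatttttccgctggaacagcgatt
The Parp11 window with the matches had 40.4% G and C and 5 CG dinucleotides, against 61.6% and 16 for Parp1 and 61.2% and 16 for Parp3. The second Parp11 window, at chr6:127453377-127453626, had 57.6% and 20, and no match. These are matches of letters, which say nothing on binding in TAMs, and a window without a match lacks only these letters.

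Whether members carry sites for miR-21 itself was read from their longest 3′ UTR in GENCODE. The mature miR-21a-5p, from chr11:86584120-86584141 on the minus strand (GRCm38.p6), is shown with its seed, bases 2 to 8, in capitals.
miR-21a-5p: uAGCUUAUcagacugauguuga
A site of 8 bases is ATAAGCTA. None of the 10 genes had a site of 7 or 8 bases, and Parp14 alone had a 6-base site, TAAGCT, in a 3′ UTR of 1772 bases. The other 9 genes, with 3′ UTRs of 107 bases (Parp2) to 2788 bases (Dtx3l), had no site. Among the 11449 tested genes that have a 3′ UTR there, 73.45% had none, and the best site was of 6 bases in 14.11%, of 7 in 10.19% and of 8 in 2.245%. Mir21a itself was listed at 0.0001 CPM, the floor of the table, in all 8 samples, so that the library labels could not be checked with it. Vmp1, whose last part overlaps Mir21a, had 124 ± 9.08 CPM in the WT and 397 ± 23.4 CPM in the miR-21-/- samples (SD, n = 4, limma adjusted p = 7.1e-07).

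Of 7 other PARP family genes, none was past the threshold. Parp4, the vault PARP, rose under the looser rule, from 66.3 ± 3.17 to 83.3 ± 4.50 CPM (log2 fold change 0.32, limma adjusted p = 0.00204, SD, n = 4), with groups that did not overlap. Tiparp, an aryl hydrocarbon receptor target, had a log2 fold change of 0.34 (adjusted p = 0.0533, but 0.0219 and 0.0436 with median-of-ratios and quantile scaling), and Zc3hav1, the zinc-finger antiviral protein, of 0.0039 (adjusted p = 0.964). Of the tankyrases, which act in telomere and WNT biology, Tnks2 fell by 0.21 on the log2 scale (adjusted p = 0.0173, but 0.198 with median-of-ratios scaling) and Tnks had a value of -0.083 (adjusted p = 0.341). Parp6 was at -0.14 (adjusted p = 0.226), and Parp16, of the endoplasmic reticulum, fell by 0.49 from 3.91 to 2.48 CPM (adjusted p = 0.0278, but 0.0621 with median-of-ratios and 0.116 with quantile scaling). Of the other Deltex ligases, Dtx4 fell past the threshold, from 31.0 ± 2.53 to 17.2 ± 0.410 CPM (log2 fold change -0.81, limma adjusted p = 3.4e-05, SD, n = 4). Dtx2 fell under the looser rule (-0.32, adjusted p = 0.0418, but 0.170 and 0.133 with median-of-ratios and quantile scaling), Dtx3 had a value of -0.28 (adjusted p = 0.0612), and Dtx1, at 0.217 and 0.208 CPM, was under the filter.

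**Figure D3:**
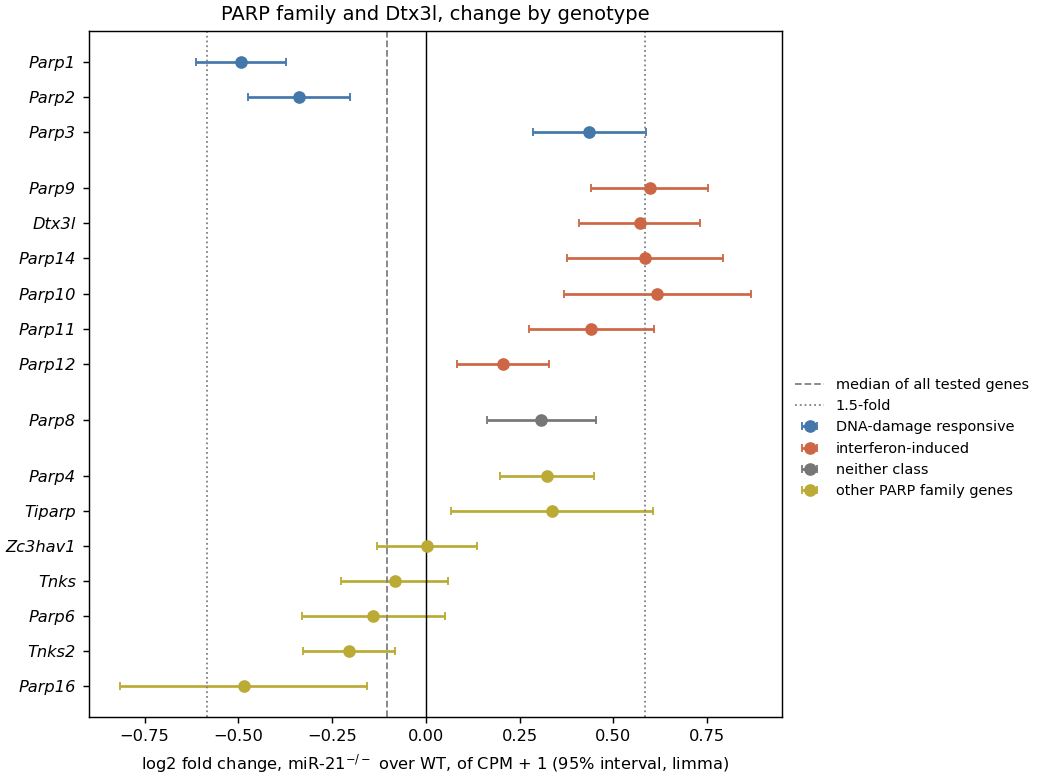
Log2 fold change of CPM + 1, miR-21-/- over WT, with its 95% limma interval, for the 10 genes by class and for 7 other PARP family genes. The solid line marks 0, the dashed line the median of all tested genes (-0.10) and the dotted lines a fold of 1.5. The interferon-induced members lie between 0.21 and 0.62, and Parp1 (-0.49) and Parp2 (-0.34) lie under the median of all genes.

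Genes that act with the DNA-damage-responsive PARPs were counted next, against 9.49% higher and 26.5% lower of all tested genes under the looser rule. These shares were 15.6% and 14.7% with median-of-ratios scaling and 13.7% and 16.3% with quantile scaling. Of 17 tested genes of base excision and single-strand break repair, none was higher and 8 were lower under the looser rule, with a median log2 fold change of -0.25 against -0.10 over all genes. With median-of-ratios scaling 2 were lower and the median was -0.14, and with quantile scaling 1 was lower and the median was -0.11. Apex1, the endonuclease that cuts at abasic sites, was the only one past the threshold, falling from 27.1 ± 2.56 to 14.5 ± 1.91 CPM (log2 fold change -0.85, limma adjusted p = 0.000258, SD, n = 4). Fen1, a flap endonuclease, had the highest value, 0.11 (adjusted p = 0.357). Of 7 genes of non-homologous end joining, Dclre1c, the Artemis nuclease, fell past the threshold (-0.78, adjusted p = 0.000442), and no other passed the looser rule, with Xrcc4 the highest at 0.21 (adjusted p = 0.0793) and a median of -0.043. With median-of-ratios and quantile scaling Xrcc4 passed the looser rule (adjusted p = 0.0240 and 0.0117), and the median was 0.046 and 0.11. Of 11 tested genes that remove, read or assist ADP-ribosylation, 4 fell under the looser rule (against 26.5% of all tested genes) and none rose, between -0.56 for Enpp1 (adjusted p = 0.0403) and 0.11 for Adprh (adjusted p = 0.0734, but 0.00621 and 0.0194 with median-of-ratios and quantile scaling), with a median of -0.11. With median-of-ratios scaling 1 of these fell and 2 rose, and with quantile scaling none fell and 1 rose, with medians of -0.0085 and -0.017. Of 16 genes of DNA replication and mitosis, none passed the looser rule in limma, with a median of 0.078, values from -0.29 for Mcm2 (adjusted p = 0.101) to 0.31 for Top2a (adjusted p = 0.227), and 1 gene at an unadjusted p under 0.05. With median-of-ratios scaling Pcna rose (adjusted p = 0.0231) and the median was 0.19, and with quantile scaling none passed and the median was 0.12.

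NAD is the substrate of every active PARP. Of 18 tested genes of NAD synthesis and use, 4 were past the threshold. Nampt, the rate-limiting enzyme of the salvage route, rose from 174 ± 11.1 to 417 ± 20.3 CPM (log2 fold change 1.25, limma adjusted p = 1.5e-06, SD, n = 4). Bst1, an NAD glycohydrolase of the cell surface, rose from 81.3 ± 11.1 to 226 ± 12.6 CPM (1.47, adjusted p = 6.8e-06). Ido1, the first enzyme of tryptophan breakdown, rose from 0.232 to 1.59 CPM (1.08, adjusted p = 0.00146) and passed the filter only through its miR-21-/- level, and Kmo, which acts later in that route, fell from 14.9 ± 5.17 to 5.38 ± 1.11 CPM (-1.27, adjusted p = 0.00211, but 0.0058 and not past the threshold with quantile scaling). Under the looser rule 4 genes rose (against 9.49% of all tested genes) and 7 fell (against 26.5%), and the median was -0.17, while 4 and 3 fell with median-of-ratios and quantile scaling, with medians of -0.081 and -0.032.

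The interferon lists were read beside the interferon-induced members. Of the 5 transcription factors read here, Irf1 was past the threshold (log2 fold change 1.63, limma adjusted p = 1.6e-05). Stat2 rose under the looser rule (0.32, adjusted p = 0.0158), Irf3 fell (-0.25, adjusted p = 0.0251, but 0.169 and 0.120 with median-of-ratios and quantile scaling), and Irf9 (0.041, adjusted p = 0.635) and Irf7 (-0.057, adjusted p = 0.832) passed neither rule. Of 20 genes induced by IFN-γ, such as those of guanylate-binding proteins and CXCR3 ligands, 19 rose past the threshold (against 2.89% of all tested genes), with Cxcl11 through the filter only by its miR-21-/- level. The list had a median of 1.53 on the log2 scale and the highest value, 2.83, for Gbp4 (adjusted p = 6.8e-06). Ciita, the regulator of MHC class II genes, was the exception (-0.14, adjusted p = 0.659). Of 21 genes induced by type I interferon, 1 rose past the threshold (against the same 2.89%), Herc6 (0.96, adjusted p = 0.000224), and the lowest was Oas2 (-0.47, adjusted p = 0.00975). Under the looser rule 6 of these rose and 2 fell (against 9.49% and 26.5% of all tested genes), with a median of 0.15, while none fell with median-of-ratios scaling (median 0.26) and 1 with quantile scaling (median 0.22). The median of the 6 interferon-induced members, 0.58, lay between those of both lists, also under the other scalings (0.69 and 0.55), and no test compared the lists. Both lists were chosen with earlier results of these data known, and their names do not say that a gene answers to only 1 type of interferon.

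**Figure D4:**
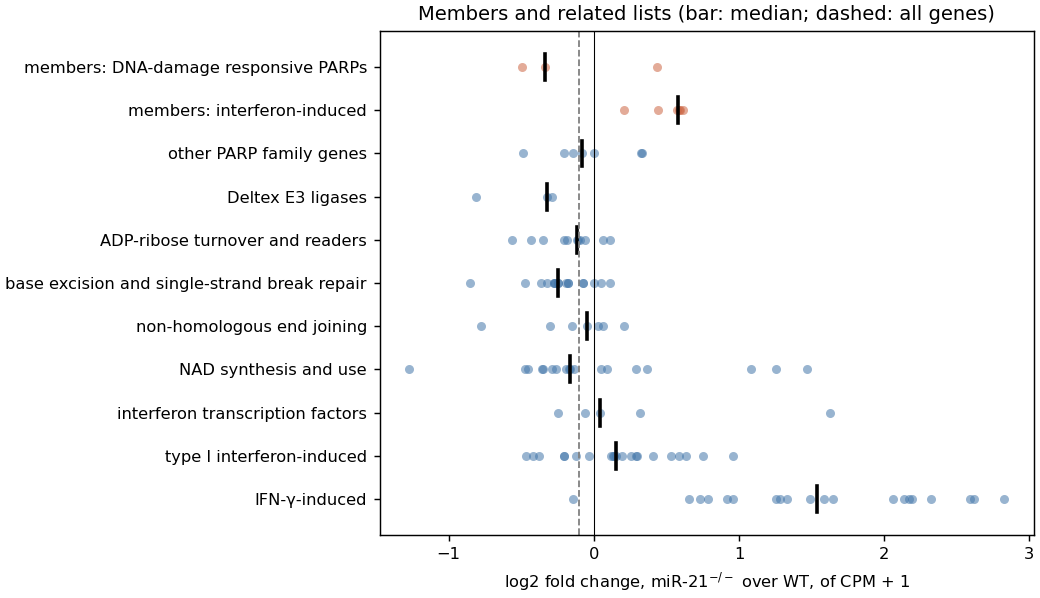
Log2 fold change of CPM + 1, miR-21-/- over WT, of each tested gene (point) of the member classes (red) and of related lists (blue), with the median of each list (bar) and of all tested genes (dashed line, -0.10). The interferon-induced members have a median of 0.58, the type I list of 0.15 and the IFN-γ list of 1.53.

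By sample, the mean log2(CPM + 1) of the 6 interferon-induced members was 6.34, 6.22, 6.22 and 6.39 in WT TAMs and 6.93, 6.78, 6.68 and 6.79 in miR-21-/- TAMs. The IFN-γ list was at 5.93, 5.80, 6.08 and 6.27 in WT TAMs and at 7.69, 7.58, 7.50 and 7.60 in miR-21-/- TAMs. The type I list was at 5.60, 5.15, 4.96 and 5.54 in WT TAMs and at 5.79, 5.38, 5.37 and 5.39 in miR-21-/- TAMs. The members and the IFN-γ list separated the genotypes, and the type I list did not. In all 3 of them replicate 1 was the highest miR-21-/- sample, and in the replication list, at 5.23, it was the lowest of all 8 samples. This miR-21-/- replicate 1 also had the highest mean of the T and NK cell markers read below, 2.32 against 1.11 to 1.80 in the other samples. For the B cell markers it was at 1.55, against 0.61 to 0.76 in the other miR-21-/- samples.

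**Figure D5:**
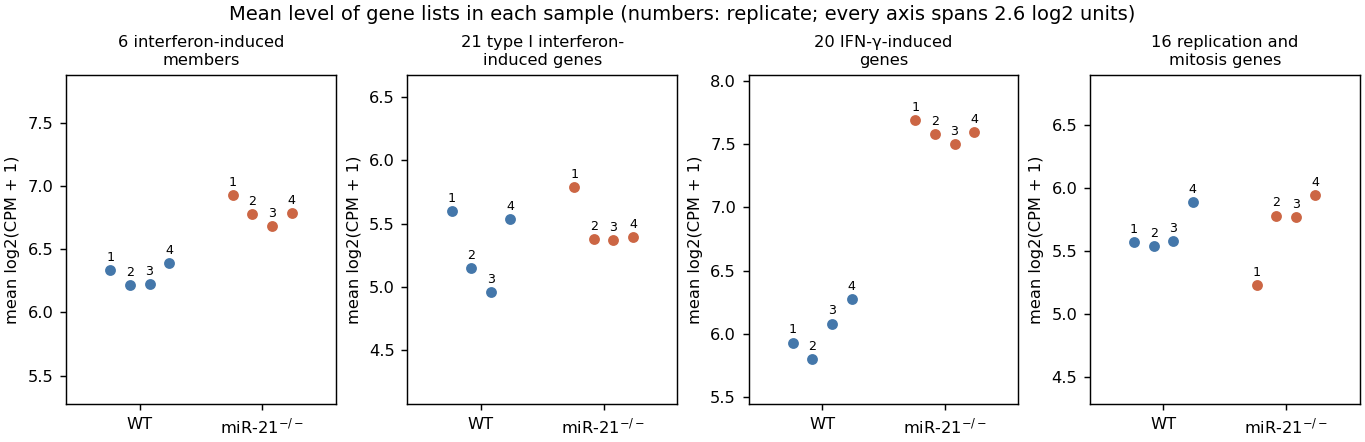
Mean log2(CPM + 1) in each sample of the 6 interferon-induced members, 21 type I interferon-induced genes, 20 IFN-γ-induced genes and 16 replication and mitosis genes, with the replicate number above each point and axes of equal span. The members and the IFN-γ list are higher in every miR-21-/- sample, and the type I list, from 4.96 to 5.60 in WT and from 5.37 to 5.79 in miR-21-/- TAMs, overlaps.

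The spread within a genotype was described by Pearson's r over the 8 samples after the genotype means had been subtracted. All 8 points share libraries and depth, and no p is given. The genes most like Parp14 were Mx1 (0.994), Oas2 (0.989) and Slfn8 (0.984), of which Mx1 and Oas2 are antiviral products of interferon. Those most like Dtx3l were Irf7 (0.982), Ifih1 (0.968) and Gm8930 (0.968), and those most like Parp1 were Anp32e (0.992), Ran (0.981) and Rad54l (0.980). Among the members, r was 0.855 for Dtx3l with Parp9, 0.757 for Dtx3l with Parp14 and 0.352 for Parp9 with Parp14, while it was 0.856 for Parp11 with Parp12 and 0.854 for Parp12 with Parp14. It was 0.911 for Parp10 with Parp3 and -0.750 for Parp10 with Parp1, pairs chosen after their values were seen. Mx1 itself had a log2 fold change of 0.14 between the genotypes and Oas2 of -0.47, against 0.58 for Parp14.

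Macrophage markers summed to 9711 to 11008 CPM in WT and 9054 to 10543 CPM in miR-21-/- TAMs, with all 10 detected. Of these, Fcgr1 rose past the threshold (0.75), and Adgre1 (-0.38) and Csf1r (-0.48) fell under the looser rule. Beside the marker counts, 9.49% of all tested genes were higher and 26.5% lower under the looser rule, and 2.89% and 4.23% past the threshold. Of 6 fibroblast markers, none at 0, 5 were lower under the looser rule and 4 past the threshold (2 with either other scaling), with sums of 66.6 to 141 CPM in WT and 11.4 to 45.8 CPM in miR-21-/- TAMs, a change that followed the genotypes like those of the members. Of 7 neutrophil markers, 6 were tested and 4 were lower under the looser rule (1 with median-of-ratios and 2 with quantile scaling), with sums of 717 to 1101 CPM and 531 to 699 CPM. Of 10 T and NK cell markers, with sums of 28.7 to 44.3 CPM and 16.2 to 56.7 CPM, 8 were tested, of which 7 had a log2 fold change above 0. Cd4 was lower past the threshold, and Cd8a (1.28, limma adjusted p = 0.00804) and Nkg7 (0.91, adjusted p = 0.0377) were higher under the looser rule. Of 5 B cell markers, with sums of 11.4 to 17.6 CPM and 3.84 to 11.3 CPM, only Cd79b was tested, and it was lower past the threshold. Of 7 dendritic cell markers (sums of 11.2 to 19.9 CPM and 15.2 to 38.4 CPM) 6 were tested. Among them 1 was higher under the looser rule (Clec9a, past the threshold with either other scaling) and 1 lower (Cd209a, through the filter only by its WT level). Of 5 epithelial markers (18.8 to 24.8 CPM and 12.7 to 17.9 CPM) 3 were tested and 1 was lower, and none with either other scaling, while Epcam was under 0.1 CPM on average in both genotypes. Of 5 endothelial markers 3 were tested, and none passed the looser rule. The part of these cells in the values of the members was not tested. The lowest values step by 0.0300 to 0.0496 CPM, which is what 1 read was worth in a sample, and the members rested on 429 (Parp11) to 14683 reads (Parp14) in a sample.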

How the data were processed

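mRNA of 8 TAM samples was sequenced. The authors deposited CPM values (counts per 1000000 reads) for each gene and sample, raised by a floor of 0.0001. The submitters' processing notes name mm10, STAR and Partek 7.0, and the counting rule and strand are not given in the sources used here, so that genes with overlapping spans cannot be told apart by strand. Of the table's symbols 93.2% are in GENCODE vM21, and 97.1% of these have the same start there. Column totals were 788099 to 807758 CPM. The depth was 20.2 to 33.3 times 1000000 reads per sample by the steps of low values, where 1 read was worth 0.0300 to 0.0496 CPM, but only 75.5% to 76.7% of values of up to 20 reads were whole (within 0.05 reads), so no count test was run.

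From the deposited values, log2(CPM + 1) was fitted by genotype with limma 3.58.1 in R 4.3.3 (lmFit, eBayes with trend), keeping genes whose mean reached 1 per 1000000 of the column totals (13850 of 30454 above the floor in at least 1 sample). Ratios within samples were compared with exact permutation tests in Python 3.11.15 with numpy 2.4.6. Members and lists were chosen with earlier results of these data known. Named were all members, other PARP and Deltex genes, interferon transcription factors, tested neighbors within 500 kb, the extremes of each other list and its genes past the threshold where 5 or fewer, and the 3 genes most like Parp14, Dtx3l and Parp1. Not every gene that this rule selects is named, above all in the marker lists. Marker genes beyond this rule were named after their values were seen. As alternatives, the pseudocount was 0.1 or 10, the filter was dropped or set at 5 per 1000000, and quantile and median-of-ratios scaling, eBayes without trend, arrayWeights, a replicate block and the removal of each sample were tried. Intervals cover 95%.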

Additional observations from a re-analysis of the deposited data

Results flagged for a closer look

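In 3 of 30 groups of 4 samples, 1 sample lay far from the other 3, which chance gives in about 1 in 20 groups. Parp9 was at 106 CPM in miR-21-/- replicate 4, while the other miR-21-/- samples lay from 99.9 to 100.5 CPM. Parp14 was at 549 CPM in miR-21-/- replicate 1, while the others lay from 425 to 443 CPM. The log2 ratio of Dtx3l over Parp9 was 1.05 in miR-21-/- replicate 1, against a lowest value of 0.91 in that genotype.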

How the results depend on the processing

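All 10 genes kept their direction in each of the 17 alternatives, and all 10 stayed at an adjusted p at or under 0.05 except Parp12 without WT replicate 2 (9 genes). The 2 genes past the threshold became 0 with a pseudocount of 10, 1 with no filter, 1 with eBayes without trend, 1 with arrayWeights and 4 with median-of-ratios scaling, and 0 to 4 when a sample was left out. Replicate numbers used here follow the sample order, and miR-21-/- replicates 2, 3 and 4 carry 3, 4 and X in their titles. The numbers used here did not pair the samples (correlations of same-numbered samples of 0.0828, -0.111, -0.143 and 0.220). By title, WT replicates 2, 3 and 4 also go with miR-21-/- replicates 1, 2 and 3, at -0.0018, 0.135 and 0.0318. A replicate block on the numbers used here left 1 gene past the threshold, Parp9, and 922 genes of the table. Of all tested genes, 986 were past the threshold, 400 higher and 586 lower, but 452 with a pseudocount of 10, 581 with no filter, and 684 to 1002 when a sample was left out. Quantile scaling gave 491 higher and 337 lower, and median-of-ratios scaling 520 and 350, and they moved the median of all genes from -0.10 to -0.0076 and -0.0030. Log2 ratios between members that were near 0 changed sign: Dtx3l over Parp9, -0.026, was 0.0024 with a pseudocount of 10, Parp14 over Parp9, -0.012, was 0.033 with it and -0.10 to 0.039 when a sample was left out, and Parp14 over Dtx3l, 0.014, was -0.043 to 0.045 when a sample was left out. Quantile scaling, tried for the ratios after the data were seen, gave -0.083 for Dtx3l over Parp9, -0.12 for Parp14 over Parp9, -0.038 for Parp14 over Dtx3l and 0.22 for Parp2 over Parp1 (exact permutation p = 0.0286), and median-of-ratios scaling kept all 5 directions and their side of 0.05. Without WT replicate 1 or miR-21-/- replicate 2, 3 or 4 the ratio of Parp14 over Parp9 was 0.039, 0.0019, 0.022 and 0.028, and without WT replicate 4 or miR-21-/- replicate 1 that of Parp14 over Dtx3l was -0.014 and -0.043. Parp2 over Parp1, 0.16, was 0.19 with a pseudocount of 10 (exact permutation p = 0.0286) and 0.13 to 0.18 when a sample was left out, with the same p without WT replicate 4 (0.18). Parp3 over Parp1, 0.93, kept its value of 0.93 with the replicate block, where sign flips of 4 pairs cannot give a p under 0.125. The cause of these changes was not tested.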
